A study of Mus musculus with 2 samples.

Results

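Fibroblastic adipocyte progenitor cells were the matrix-rich stromal cells among the cells sorted from perigonadal white adipose tissue (gWAT) for having used the Cyp1a1 promoter. They were chosen by their RNA: a kept cell was a member when it had at least 1 UMI (a counted RNA molecule) of at least 5 of the 10 genes Clec3b, Dpt, Mfap5, Col14a1, Postn, Svep1, Sfrp1, Mfap4, Pla1a and Pi16, no UMI of Ptprc, the pan-leukocyte gene, at most 4 of 10 mesothelial genes and fewer than 4 of 10 cell cycle genes. This gave 780 members among 18753 kept cells, 206 from the LFD library and 574 from the HFD library. All 780 members entered the sums of counts below, except where members were thinned or a subset or other choice of members is named. Results from members thinned at random to an equal number of UMIs rest on 205 LFD and 568 HFD members. The other 1 LFD and 6 HFD members had too few UMIs. The 31 genes of the rule, Ptprc included, are described but support no comparison.

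The cells came from the stromovascular fraction (SVF) of male mice carrying Cyp1a1Cre and R26LSL-eYFP, in which Cre under the Cyp1a1 promoter turns on eYFP permanently, so that an eYFP+ cell or one of its ancestors had expressed Cyp1a1 at some time. The mice ate a purified diet holding 10% fat (LFD, low-fat) or 60% fat (HFD, high-fat), and the feeding lasted 12 weeks. Mice of both groups also received FICZ, a ligand of the aryl hydrocarbon receptor (AHR), at 10 mg/kg, 5 days before tissue collection. Live eYFP+ cells of pooled mice gave 1 single-cell RNA-seq library per diet, no group went without the ligand, and no mouse could be told from another, so diet, sort and library cannot be told apart and no comparison between diets has a replicate check. The age of the mice was not given in the labels.

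Adipocyte progenitors are mesenchymal cells that carry the PDGF receptor alpha (Pdgfra), make the collagen-rich matrix of fat tissue and can become new adipocytes when the depot grows. In mouse white fat they are commonly divided into Dpp4+ interstitial progenitors, which lie in the fibrous septa and are held to be the most primitive, Icam1+ preadipocytes that are committed to adipogenesis and express lipid handling genes such as Lpl, and F3+ cells, for which a restraining effect on adipogenesis has been described. Visceral progenitors also express Wt1, as the mesothelium does.

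A pair of promoter stretches is shown because one drove the label by which every cell was sorted and the other belongs to the gene with the lowest HFD to LFD ratio among genes of at least 50 CPM other than immunoglobulin genes. Each is given 5′ to 3′ on the strand of its gene, from base -150 to base -31 relative to the gene start in RefSeq (build GRCm38.p6). In Cyp1a1 (chr9:57697463-57697582, plus strand) the capitals mark GCGTG, the core that the AHR and its partner ARNT bind. In Saa3 (chr7:46715707-46715826, minus strand) they mark a match on the opposite strand to TTGCNNAA, letters of the kind bound by C/EBP factors.
Cyp1a1: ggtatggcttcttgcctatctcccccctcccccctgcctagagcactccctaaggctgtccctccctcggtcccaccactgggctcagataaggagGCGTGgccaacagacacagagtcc
Saa3: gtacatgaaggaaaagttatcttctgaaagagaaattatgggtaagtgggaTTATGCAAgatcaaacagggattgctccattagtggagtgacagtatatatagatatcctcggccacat
The match in Cyp1a1 covered bases -54 to -50 and the match in Saa3 bases -99 to -92, each the only one within 250 bases of the gene start on both strands. GCGTG was present in 28.2% of 32851 RefSeq promoters of that length, and in 6 of the 9 promoters found for the 14 genes of the AHR list. TTGCNNAA was present in 9.56% of all promoters, and in 9 of 25 promoters found for 22 of the 31 genes of the acute phase, cytokine and chemokine list. These are matches of letters, not binding sites. No promoter was found in the table for Ahr, Hp or Cxcl5.

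Few stromal cells lay near the limit of 5 progenitor genes. Among cells without Ptprc that passed the mesothelial and cell cycle limits, 3191 LFD and 1269 HFD cells had none of the genes, 21 and 16 cells had 4, 20 and 20 cells had 5, and the numbers then increased to 61 and 162 cells with 8. Members had a median of 8 genes in both libraries. The 20 LFD cells just inside the limit had 191 CPM (UMIs of a gene per 1000000 UMIs summed over the cells) of Dpep1, and the 21 just outside had 42.6 CPM. In HFD the corresponding levels were 161 and 34.0 CPM. Lpl, the lipoprotein lipase, was likewise higher inside, at 655 against 201 CPM in LFD and 406 against 90.7 CPM in HFD. Dcn was lower inside, at 4377 against 6784 CPM in LFD and 5182 against 5874 CPM in HFD, and Pdgfra was lower inside in LFD and higher inside in HFD, at 273 against 399 CPM in LFD and 341 against 289 CPM in HFD.

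**Figure D1:**
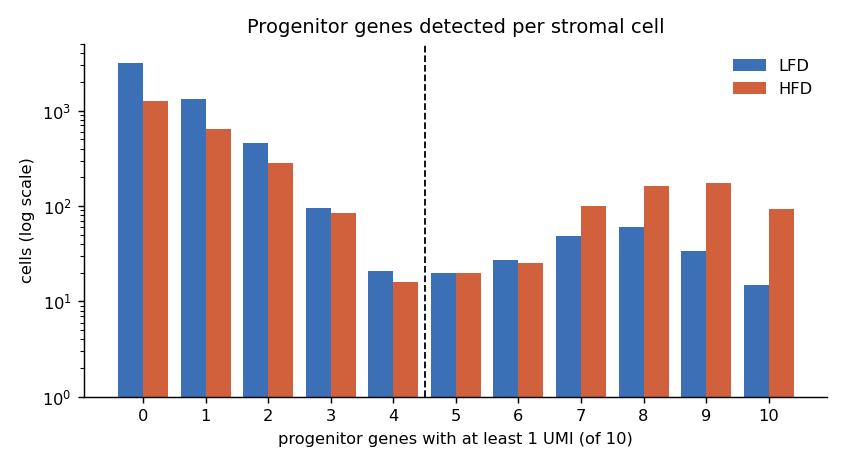
Number of cells (log scale) by how many of the 10 progenitor genes had a UMI, for LFD and HFD cells without Ptprc that passed the mesothelial and cell cycle limits; the dashed line is the limit of 5 genes. Between 0 and 8 genes, cells were fewest at 5 genes in LFD (20 cells) and at 4 genes in HFD (16 cells), and HFD exceeded LFD from 7 genes upwards.

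Members made up 2.02% (1.75 to 2.31%, exact 95% binomial interval) of the kept LFD cells and 6.72% (6.20 to 7.28%) of the kept HFD ones, and the HFD to LFD ratio of the shares was 3.33 (2.84 to 3.93). This and every interval below covers counting error only. The genes that chose the cells were themselves at different levels in the members, with a sum of 4529 CPM (LFD) and 8599.5 CPM (HFD), and 8 or more of them were detected in 53.4% of LFD and 74.9% of HFD members, so the share and the level of these genes cannot be told apart. When every cell was first thinned at random to 2000 UMIs, the LFD share was 1.06% and the ratio 5.83. Depth was close between the members of the libraries, with a median of 10538.5 UMIs per LFD and 10479 per HFD member. In all, the members held 2291850 LFD and 6296724 HFD UMIs. The kept cells of the libraries shared 22 barcodes, and no barcode was a member in both.

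The genes of the rule, which chose the cells, differed among themselves. Mfap5, a microfibril component, was the most abundant at 1048 CPM (LFD) and 1877 CPM (HFD), followed in HFD by Postn, periostin, at 753 CPM (LFD) and 1391 CPM (HFD), and Dpt, dermatopontin, at 551 CPM (LFD) and 1284 CPM (HFD). Clec3b, tetranectin, was at 318 CPM (LFD) and 1023 CPM (HFD), Col14a1, a fibril-associated collagen, at 333 CPM (LFD) and 946 CPM (HFD), and Svep1, an adhesion protein of the matrix, at 250.5 CPM (LFD) and 585 CPM (HFD). Pla1a, a phospholipase, was at 100.4 CPM (LFD) and 342 CPM (HFD) and Pi16, a marker of widespread fibroblast progenitors, at 42.3 CPM (LFD) and 124 CPM (HFD). Sfrp1, a secreted Wnt inhibitor, was the 1 gene of the 10 that was lower in HFD, at 847 CPM (LFD) and 680.0 CPM (HFD), and Mfap4 was at 285 CPM (LFD) and 348 CPM (HFD). The other 9 were higher in HFD, by ratios from 1.22 for Mfap4 to 3.41 for Pla1a.

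Progenitor genes outside the rule were also expressed by the members. Of these, Pdgfra set the members apart from B cells but not from Wt1+ keratin-low cells, stromal cells described below. All 16 genes of a general progenitor and fibroblast list had UMIs in both libraries. Pdgfra was detected in 93.2% of LFD and 91.3% of HFD members. In B cells, a cell type that should lack it, the shares were 8.23% of LFD and 2.45% of HFD cells (median 4660 LFD and 6792 HFD UMIs). With cells thinned to equal depth, Pdgfra was found in 54.6% of LFD and 47.5% of HFD members. In the thinned Wt1+ keratin-low cells these shares were 57.6% in LFD and 43.4% in HFD. Of the 16, Cd34, Cd9, Thy1 and Gsn were at least 2-fold higher in HFD, as were 3.15% of all genes of at least 20 CPM. Dcn, which encodes the proteoglycan decorin, was at 6244 CPM (LFD) and 10164 CPM (HFD). Wt1 was detected in 80.6% of LFD and 77.7% of HFD members. Adipoq, a product of mature adipocytes, had 1 UMI in each library. Of 10 macrophage markers the summed level was 161 CPM (LFD) and 118 CPM (HFD), of 10 endothelial markers 58.5 CPM (LFD) and 137 CPM (HFD), and of 10 mural markers 462 CPM (LFD) and 468 CPM (HFD). T cell and innate lymphoid markers summed to 75.9 CPM (LFD) and 181 CPM (HFD), of which Thy1 and Rora are also expressed by fibroblasts. Cd3d, Cd3e and Cd3g of that list and Sox10 of the Schwann cell list were at 0 in both. B and plasma cell markers summed to 2909 CPM (LFD) and 1613 CPM (HFD), and 3 members of each library held 91.8% of the LFD and 43.9% of the HFD immunoglobulin UMIs. Without these members the order of Igkc was reversed, from 2011 and 984 CPM to 165 and 580.4 CPM in LFD and HFD.

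The first comparison asked how the progenitors of mice on HFD differed from those of mice on LFD. Of 5712 genes with a mean of at least 20 CPM over both libraries, 180 (3.15%) were at least 2-fold higher in HFD and 69 (1.21%) at least 2-fold lower, 4.36% in either direction, 3417 had a ratio above 1, and the median ratio over these genes was 1.07. A gene below 20 CPM in one library could reach the limit only through the other, as did Cd36, Fmo2, Col8a1, Hpgd, Gpnmb, Stmn2, Ifi47, Hspa1b, H2-Q7 and genes of the interstitial list among the genes described below as past 2-fold. Genes of matrix and the interstitial state were among the highest, and acute phase genes and chemokines among the lowest. In bulk sums of cells, fewer cells expressing a gene and less RNA per cell cannot be told apart, so shares of cells and levels in single cells are given beside the sums where a result turns on them.

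**Figure D2:**
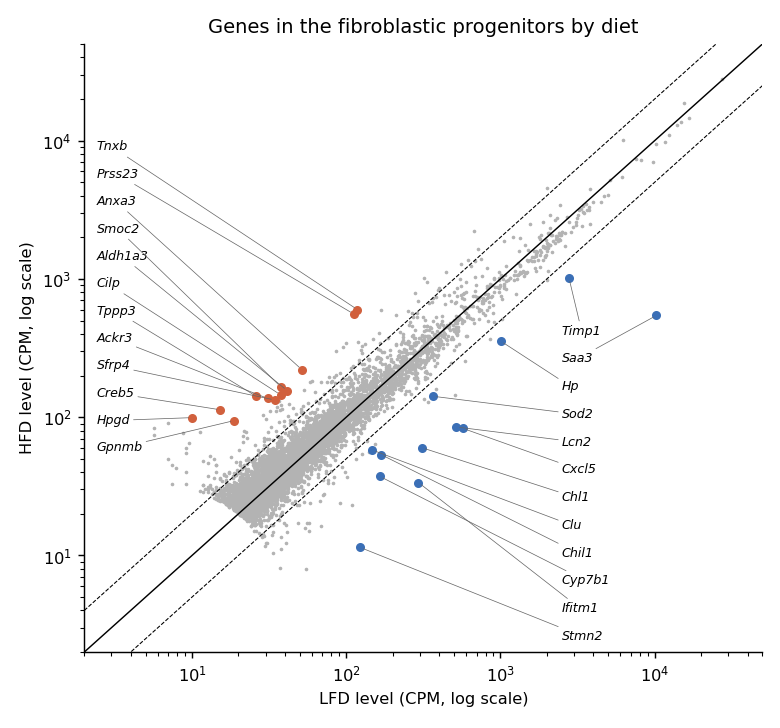
Level of each of the genes with a mean of at least 20 CPM in the LFD (x axis) and HFD (y axis) progenitors, both in CPM on log scales, with the line of equality and dashed lines at 2-fold. The 12 highest (orange) and 12 lowest (blue) ratios among genes of at least 50 CPM, immunoglobulin and other left-out genes aside, are named, from Hpgd at 9.89 to Saa3 at 0.0530.

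Most measured genes of the Dpp4+ interstitial state were at higher levels in HFD. Of 14 listed genes, 10 reached 20 CPM, and 9 of these were at least 2-fold higher in HFD, where 3.15% of all genes were, with a median log2 ratio of 1.28 against 0.10 for all genes. Sema3c, Dpp4 and Creb5 were below 20 CPM in LFD and reached the limit through their HFD level, so they had to differ, and the count is a description. The list overlaps in kind with the rule, since Pi16 and Clec3b belong to the same state, and the genes were listed with earlier results of these data known. The count was lower in both parts of a split of the members by Dpp4 or Sema3c, which are genes of the list itself. It was 6 of 10 in members with either gene, and 3 of 10 in members without, where these genes are at 0 by construction and the median over the other 8 was 0.86. With membership set after thinning it was 6 genes, and with median-ratio scaling 7. Sema3c, a secreted semaphorin (gene at chr5:17574281-17730268, plus strand, GENCODE M21), was at 6.98 CPM (LFD) and 90.8 CPM (HFD), a ratio of 13.0 (7.94 to 22.9). Dpp4, the cell surface peptidase that names the state (chr2:62330073-62412231, minus strand), was at 8.73 CPM (LFD) and 76.4 CPM (HFD), a ratio of 8.75 (5.605 to 14.5). The LFD level lay below that of B cells, 35.8 and 24.9 CPM, and could not be told from background. B cells had 0.526 and 1.11 CPM of Sema3c. The 10 interstitial genes of at least 20 CPM also stood above all genes in other stromal cells of the libraries, described below. Their median log2 ratio was 0.58 in Wt1+ keratin-low cells and 0.46 in keratin-high cells, against 0.09 and 0.11 for all genes there. None of them was at least 2-fold higher in the Wt1+ cells, and the difference between cell groups was not tested.

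UMIs of Sema3c were found in 5.83% (3.05 to 9.95%) of LFD and 29.4% (25.7 to 33.4%) of HFD members, and of Dpp4 in 8.25% (4.88 to 12.9%) of LFD and 38.7% (34.7 to 42.8%) of HFD. These shares were 2.93% and 12.0% for Sema3c and 1.95% and 12.7% for Dpp4 when each member was thinned to 2000 UMIs. For both genes the HFD share lay outside the LFD interval. Creb5, a transcription factor of the CREB family, had a ratio of 7.40 (5.27 to 10.7), from 15.3 and 113 CPM. Anxa3, an annexin, had one of 4.29 (3.55 to 5.22), from 51.5 and 221 CPM, and the ratio of Anxa3 was 6.89 with members thinned. Ly6c1, a surface marker of these cells, was at 209 CPM (LFD) and 544 CPM (HFD), and Cd55, which protects cells from complement, at 107 CPM (LFD) and 226 CPM (HFD). Fn1, the fibronectin gene, was the most abundant of the list at 2013 CPM (LFD) and 4543 CPM (HFD), a ratio of 2.26 (2.19 to 2.33). Heg1 and Emilin2 had ratios of 2.10 and 2.25. Il33, an alarmin cytokine, was the exception at 282 CPM (LFD) and 162 CPM (HFD), a ratio of 0.575 (0.520 to 0.635).

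The 4 other genes of the list were below 20 CPM. Wnt2, a Wnt ligand, had 3 LFD and 77 HFD counts, a ratio of 9.34 (3.08 to 46.3). Efhd1 had 1 and 130 counts, a ratio of 47.3 (8.34 to 1883). Bmp7 had no LFD and 17 HFD counts and was at least 2.06-fold higher in HFD when set against a floor of 3 counts in the LFD library. Dact2 had 5 and 25 counts, a ratio whose interval included 1, 1.82 (0.684 to 6.09).

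**Figure D3:**
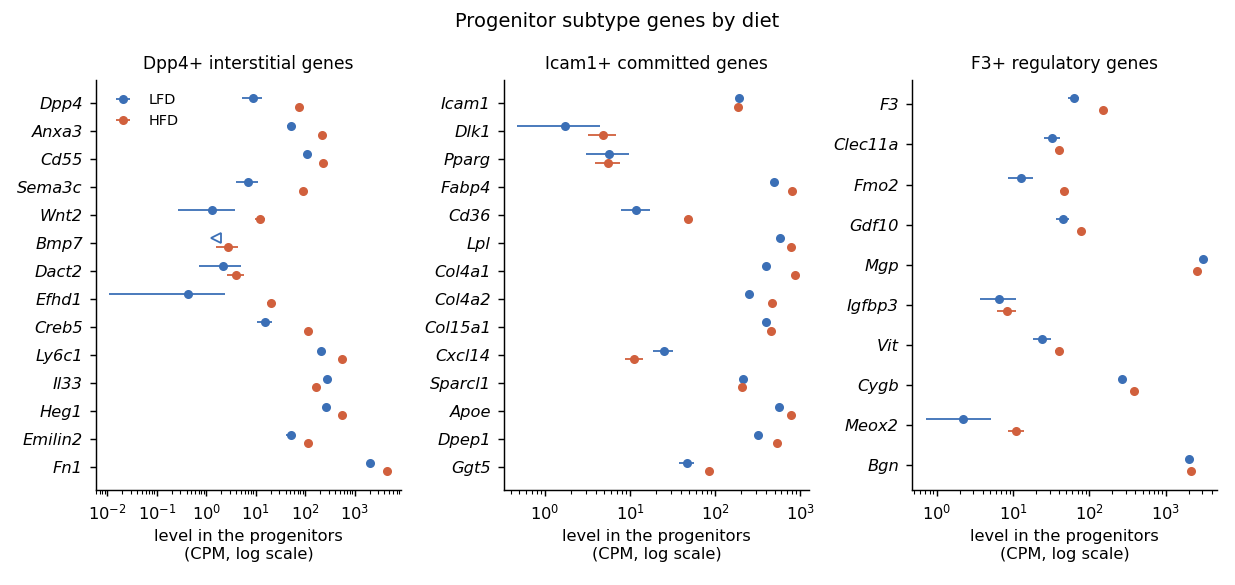
Level in the LFD (blue) and HFD (orange) progenitors, in CPM on a log scale, of the genes of the interstitial, committed and regulatory lists, with exact 95% Poisson intervals; the open triangle is the upper bound for a count of 0. In the interstitial panel 13 genes lie higher in HFD and Il33 lies lower, whereas Icam1, Pparg and Sparcl1 lie close together in the committed panel.

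Committed preadipocyte genes were less far apart. Of 14 genes, 11 reached 20 CPM, 2 of them were at least 2-fold higher in HFD (3.15% of all genes were) and none at least 2-fold lower, and the median log2 ratio was 0.69. Lpl (chr8:68880491-68907448, plus strand) was at 577 CPM (LFD) and 786 CPM (HFD), a ratio of 1.36 (1.28 to 1.45), and was detected in 88.3% of LFD and 92.9% of HFD members. Fabp4, a fatty acid binding protein, was at 497 CPM (LFD) and 801 CPM (HFD), but in the median cell at 224 and 185 CPM, lower in HFD. B cells had 399 and 198 CPM of Fabp4, and the part of free RNA in its level was not tested. The 57 HFD members with the most Fabp4 held 70.7% of its HFD UMIs, with the 20 highest LFD members holding 56.5% of the LFD ones. Icam1, the adhesion molecule that names the state, was at 193 CPM (LFD) and 185 CPM (HFD), and the interval of its ratio included 1, 0.959 (0.859 to 1.07). Pparg, the master regulator of adipogenesis, was at 5.67 CPM (LFD) and 5.56 CPM (HFD), 0.980 (0.506 to 2.02). Col4a1, a basement membrane collagen, and Cd36, a fatty acid transporter, were the genes past 2-fold, at 397 CPM (LFD) and 859 CPM (HFD) and at 11.8 CPM (LFD) and 48.3 CPM (HFD). For Cd36 the level in B cells was 52.9 and 35.9 CPM, and 4.37% of LFD and 6.79% of HFD members had a UMI against 12.2% of LFD and 9.51% of HFD B cells, so neither its share nor its LFD level was above that of B cells.

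Dpep1, a membrane dipeptidase (chr8:123186242-123201812, plus strand), was at 317 CPM (LFD) and 531 CPM (HFD), and Apoe, the apolipoprotein, at 571 CPM (LFD) and 772 CPM (HFD). Col4a2 had a ratio of 1.83, Ggt5 one of 1.83, Col15a1 one of 1.13 and Sparcl1 one of 0.985. Cxcl14, a chemokine, was at 24.9 CPM (LFD) and 11.1 CPM (HFD), with a mean below 20 CPM. Dlk1, an inhibitor of adipogenesis, had 4 and 30 counts, 2.73 (0.962 to 10.7).

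Of the 10 genes of the F3+ list, 8 reached 20 CPM, and 2 were at least 2-fold higher in HFD, against the same 3.15%. These were F3, the tissue factor gene, at 62.8 CPM (LFD) and 153 CPM (HFD), a ratio of 2.43 (2.04 to 2.92), and Fmo2, a monooxygenase, at 12.7 CPM (LFD) and 46.4 CPM (HFD), a ratio of 3.66 (2.50 to 5.57). F3 was detected in 42.2% (35.4 to 49.3%) of LFD and 63.9% (59.9 to 67.9%) of HFD members, and in 0.107% of LFD and 0.409% of HFD B cells. Mgp, the matrix Gla protein and the most abundant gene of the list, was at 3072 CPM (LFD) and 2559 CPM (HFD), and Bgn, biglycan, at 2049 CPM (LFD) and 2142 CPM (HFD). Gdf10, a TGF-beta family ligand, had a ratio of 1.72, Vit one of 1.67, Cygb one of 1.45 and Clec11a one of 1.23. Below 20 CPM, Igfbp3 was at 6.54 and 8.26 CPM and Meox2 at 2.18 and 10.96 CPM in LFD and HFD. The F3 difference was therefore similar in size to that of Fn1, and below those of Sema3c and Dpp4, whose intervals lay above that of F3.

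Among members of the HFD library, cells with and without Dpp4 were set side by side after thinning, 72 against 496 cells. The other genes of the interstitial list had higher values in Dpp4+ cells except Wnt2 and Il33, some on very few counts, with Sema3c at 278 against 66.5 CPM and Cd55 at 465 against 208 CPM. Outside the list, Ackr3, a scavenger receptor for Cxcl12, was at 299 against 109 CPM. Col15a1 was at 222 against 479.8 CPM, Fabp4 at 396 against 873 CPM, Apoe at 451 against 997 CPM and Cxcl12 at 778 against 1339.7 CPM, all lower in Dpp4+ cells. Only 4 thinned LFD members had Dpp4, too few for the same description. Of unthinned members, 27 LFD and 286 HFD cells had a UMI of Dpp4 or Sema3c. In the LFD cells Sfrp4, a secreted Wnt inhibitor, was at 130.2 against 19.7 CPM and Creb5 at 55.3 against 9.07 CPM, in cells with against cells without either gene. Igkc was at 9950.3 against 782 CPM in the same LFD cells, and Dpp4 was found in 18.8% of LFD B cells. Their part in the result was not tested. In the HFD cells Sfrp4 and Creb5 were at 198 against 60.9 CPM and 169 against 51.2 CPM.

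Cells with Icam1 (67 LFD and 164 HFD after thinning) were set beside cells without it in the same way. Lpl was at 463 against 623 CPM in LFD and 896 against 832 CPM in HFD, in opposite order, and Fabp4 at 529.9 against 627 CPM in LFD and 567 against 912 CPM in HFD, lower in both. Ccl2 was at 761 against 543 CPM in LFD and 591 against 433 CPM in HFD, and Cxcl1 at 1761 against 1438 CPM and 1558 against 1272 CPM, both higher beside Icam1, whereas Cxcl5 was at 545 against 453 CPM in LFD and 36.6 against 90.3 CPM in HFD, in opposite order. Cells with F3 (32 LFD and 135 HFD) had Lcn2 at 938 against 384 CPM in LFD and 104 against 62.4 CPM in HFD, and Ptx3 at 844 against 509 CPM and 429.6 against 319.9 CPM. These are levels in cells of a single library per diet and have no replicate.

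Several acute phase genes and chemokines were at much lower levels in HFD progenitors. Of 31 listed genes, 24 reached 20 CPM, 5 of them were at least 2-fold lower in HFD (1.21% of all genes were) and none at least 2-fold higher, 20 had a ratio below 1, and the median log2 ratio was -0.59. With membership set after thinning 8 genes were past 2-fold in the direction given here, in members with Dpp4 or Sema3c 7, and without Scrublet doublets 4. In members with Dpp4 or Sema3c 20 of the 24 genes kept their direction. Saa3, the serum amyloid A gene that is expressed outside the liver (chr7:46711998-46715700, minus strand), was at 10274 CPM (LFD) and 544 CPM (HFD), a ratio of 0.0530 (0.0511 to 0.0549). In LFD it was the most abundant transcript of the list and was found in 98.5% of members, with a cell median of 5602 CPM and 10th and 90th percentiles of 299 and 23530.4 CPM. In HFD it was found in 50.9% of members, with a median of 56.0 CPM and a 90th percentile of 1242 CPM. The 57 HFD members with the most Saa3 held 78.6% of its HFD UMIs.

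Saa3 was also found outside the stromal cells. B cells had 645 and 36.0 CPM, and 83.5% of LFD and 28.1% of HFD B cells had a UMI of it, so its level outside the stromal cells was also higher in the LFD library, and the part of free RNA in the result was not tested. The level in the members was 10274 CPM against 645 CPM in the B cells in LFD, and 544 CPM against 36.0 CPM in HFD. After thinning, 89.3% of LFD members and 54.0% of LFD B cells had a UMI. In HFD these shares were 26.4% and 8.06%. The difference was present both in members with and in members without the interstitial genes. Cells with Dpp4 or Sema3c had 8694 CPM (LFD) and 411 CPM (HFD), and cells with neither had 10519 CPM (LFD) and 692 CPM (HFD).

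Lcn2, which encodes the iron-siderophore binding lipocalin 2 (chr2:32384633-32388252, minus strand), was at 516 CPM (LFD) and 85.0 CPM (HFD), a ratio of 0.165 (0.148 to 0.182), and in 64.6% (57.6 to 71.1%) of LFD and 24.0% (20.6 to 27.8%) of HFD members. Cxcl5, a neutrophil chemokine, was at 569.8 CPM (LFD) and 83.1 CPM (HFD), a ratio of 0.146 (0.131 to 0.161), with cell medians of 212 and 0 CPM. Hp, haptoglobin, was at 1004 CPM (LFD) and 355 CPM (HFD), a ratio of 0.354 (0.334 to 0.375), and its cell medians were 602 and 78.1 CPM. For these 3 genes B cells had at most 30.2 CPM in LFD and 6.24 CPM in HFD. Cxcl13, a B cell chemokine, was the fifth gene past 2-fold, at 385 CPM (LFD) and 159 CPM (HFD), but rested on few cells, since 18.4% of LFD and 6.10% of HFD members had a UMI.

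**Figure D4:**
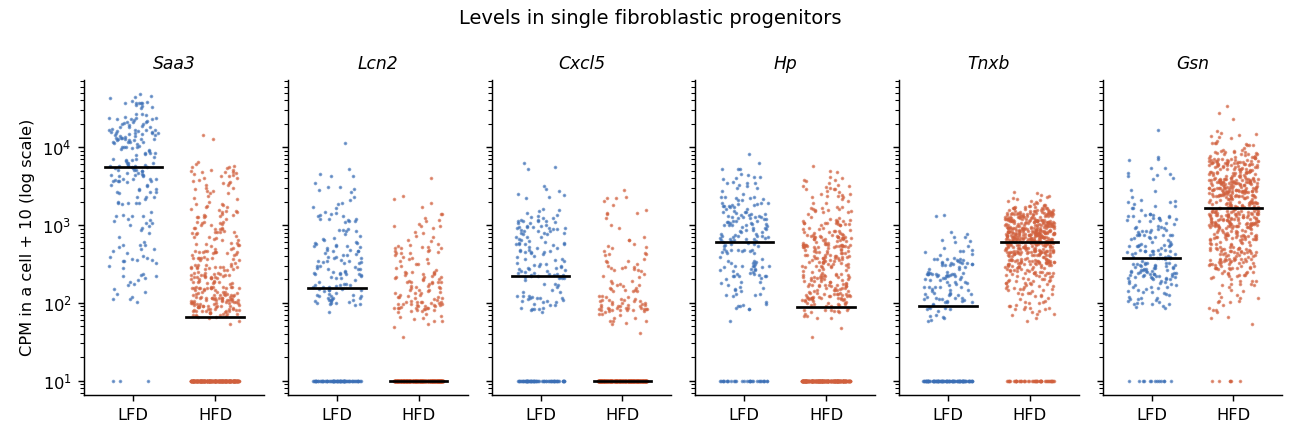
Level of Saa3, Lcn2, Cxcl5, Hp, Tnxb and Gsn in each of the 206 LFD and 574 HFD progenitors, as CPM of that cell plus 10 on a log scale, with points spread sideways and black bars at the medians. Most LFD cells lie high and most HFD cells low for Saa3, and the reverse holds for Tnxb and Gsn, with overlap between the diets for all 6 genes.

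The other chemokines and cytokines with a mean of at least 20 CPM were within 2-fold, on both sides of 1. Cxcl14, also on the list but below that limit, was lower in HFD, as given above. Cxcl12, which retains B cells and progenitors in tissues, was at 2048 CPM (LFD) and 1138 CPM (HFD), a ratio of 0.555 (0.535 to 0.576), Ccl7 at 913 CPM (LFD) and 488 CPM (HFD), and Cxcl2 at 262 CPM (LFD) and 147 CPM (HFD). The pentraxin Ptx3 had a ratio of 0.628 (0.585 to 0.674), Ccl19 one of 0.550 (0.452 to 0.672), Vcam1 one of 0.660 (0.603 to 0.722) and Il1r1, the receptor of interleukin 1, one of 0.675 (0.613 to 0.743). Cxcl1 and Ccl2 were closer to 1, with ratios of 0.897 (0.862 to 0.933) and 0.775 (0.729 to 0.824). Above 1 stood Il6 at 1.28 (1.16 to 1.41), Csf1, the macrophage growth factor, at 1.41 (1.23 to 1.63), Tnfaip6 at 1.57 (1.45 to 1.70) and Ccl11, the eotaxin gene, at 1.84 (1.58 to 2.16). Nfkbia and Tnfaip3, inhibitors that are targets of NF-kappaB, had ratios of 0.802 and 0.789.

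The same genes were set beside the other stromal cells of the libraries, Wt1+ cells with few progenitor and mesothelial genes (3687 LFD and 1225 HFD cells) and keratin-high cells with at least 5 mesothelial genes (1148 and 1636 cells). Saa3 was at 15283 and 4049 CPM in the Wt1+ cells, a ratio of 0.265 (0.263 to 0.267), and its ratio in the keratin-high cells was 0.335. It was thus lower in HFD in all 3 stromal cell groups, with the lowest ratio of the 3 in the progenitors. B cells, outside these groups, also had less Saa3 in HFD, as given above. For Hp the progenitors had the highest of the 3 ratios, with 0.114 in the Wt1+ and 0.173 in the keratin-high cells. Cxcl5 had ratios of 0.644 and 0.937, closer to 1 than in the progenitors. The median log2 ratio over the 24 genes was -0.12 in the Wt1+ and 0.05 in the keratin-high cells. In the Wt1+ cells 5 of the genes were at least 2-fold lower and 0 at least 2-fold higher, the same counts as in the progenitors. Over all 5712 genes, 105 were at least 2-fold lower and 50 at least 2-fold higher in the Wt1+ cells. In the progenitors these numbers were 69 and 180. The Wt1+ and keratin-high cells were drawn from the same libraries, with a median of 11469 LFD and 16718 HFD UMIs in the Wt1+ cells. The difference between cell groups was not tested.

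**Figure D5:**
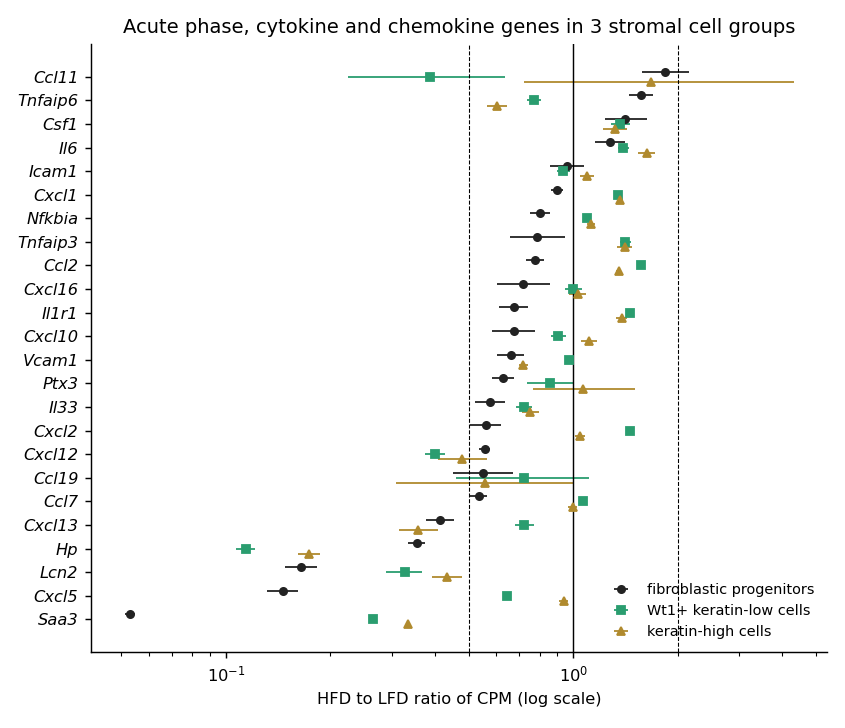
HFD to LFD ratio of CPM (log scale) with exact 95% counting intervals for the 24 acute phase, cytokine and chemokine genes of at least 20 CPM, in the progenitors (circles), Wt1+ keratin-low cells (squares) and keratin-high cells (triangles); dashed lines are at 2-fold. Saa3 lies below 1 in all 3 groups, whereas Ccl2, Cxcl2 and Il1r1 lie below 1 in the progenitors and above 1 in the Wt1+ cells.

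Genes outside the inflammatory list with low ratios were of several kinds. Ifitm1, an interferon-inducible membrane protein (chr7:140967221-140969825, plus strand), was at 294 CPM (LFD) and 33.7 CPM (HFD), a ratio of 0.114 (0.0976 to 0.134), and in 54.4% of LFD and 17.6% of HFD members. Stmn2, best known as a neuronal stathmin, was at 123 CPM (LFD) and 11.4 CPM (HFD), a ratio of 0.0929 (0.0707 to 0.121), and Chl1, a neural cell adhesion molecule, at 309 CPM (LFD) and 60.2 CPM (HFD), 0.195 (0.172 to 0.221). Cyp7b1, an oxysterol hydroxylase, was at 165 CPM (LFD) and 37.3 CPM (HFD), 0.226 (0.191 to 0.267). Timp1, an inhibitor of matrix metalloproteinases, was at 2781 CPM (LFD) and 1017 CPM (HFD), a ratio of 0.366 (0.353 to 0.378), and this ratio was 0.412 in the Wt1+ and 0.396 in the keratin-high cells. Chil1 had a ratio of 0.320, Sod2, the mitochondrial superoxide dismutase, one of 0.388, and Clu, clusterin, one of 0.391. Of the 12 lowest genes, 7 were at a higher level in the Wt1+ cells than in the progenitors in both libraries, namely Saa3, Stmn2, Cxcl5, Cyp7b1, Chil1, Sod2 and Clu, with Clu at 1322 and 608 CPM against 148 and 57.8 CPM. The ratio of Stmn2 was 0.162 with membership set after thinning, 0.0622 with members thinned and 0.0407 without members holding a marker of another type.

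Interferon-stimulated genes were lower without passing 2-fold in most cases. Of 20 genes, 19 reached 20 CPM, 18 had a ratio below 1 and 3 were at least 2-fold lower (1.21% of all genes were), with a median log2 ratio of -0.55. Besides Ifitm1 these were Isg15, at 127 CPM (LFD) and 54.2 CPM (HFD), and Ifi47, at 33.6 CPM (LFD) and 10.5 CPM (HFD). Ifitm3, the most abundant, was at 2632 CPM (LFD) and 1738 CPM (HFD), a ratio of 0.660 (0.640 to 0.682). Psmb9 had the only ratio above 1, 1.05 (0.770 to 1.46), whose interval included 1.

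Matrix genes outside the collagens stood on both sides of 1. Of 34 genes for elastic fibres, proteoglycans, crosslinking and proteolysis, 33 reached 20 CPM, 26 had a ratio above 1 (3417 of 5712 among all genes), 6 were at least 2-fold higher (Fn1 of the interstitial list among them, where 3.15% of all genes were) and 1, Timp1, at least 2-fold lower, and the median log2 ratio was 0.60. Tnxb, tenascin X (chr17:34670535-34719815, plus strand), was at 118 CPM (LFD) and 599.5 CPM (HFD), a ratio of 5.07 (4.48 to 5.76). It was found in 55.8% (48.8 to 62.7%) of LFD and 91.6% (89.1 to 93.8%) of HFD members, with cell medians of 80.7 and 600.0 CPM. The elastic fibre genes Fbln5, Eln and Fbn1 had ratios of 3.06 (2.56 to 3.68), 2.59 (2.29 to 2.94) and 2.30 (2.18 to 2.42). Has1, a hyaluronan synthase, was at 164 CPM (LFD) and 404 CPM (HFD), and Timp2 at 679.8 CPM (LFD) and 1355 CPM (HFD). Sparc, the most abundant gene of the list, was at 16589 CPM (LFD) and 14623 CPM (HFD), and Lox and Fbln1 had ratios of 0.806 and 0.791.

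The most abundant fibrillar collagens were close between the diets. Col3a1 was at 27444 CPM (LFD) and 27973 CPM (HFD), Col1a1 at 14729 CPM (LFD) and 13583 CPM (HFD) and Col1a2 at 13952 CPM (LFD) and 12904 CPM (HFD), with ratios of 1.02, 0.922 and 0.925. Together the 18 collagens summed to 62382 CPM in LFD and 62537 CPM in HFD. Of the 18 genes, 16 had a ratio above 1 and 2 were at least 2-fold higher (all genes 3.15%). These were Col8a1, a short-chain network collagen (chr16:57624258-57754737, minus strand), at 5.67 CPM (LFD) and 74.2 CPM (HFD), a ratio of 13.1 (7.57 to 24.7), and Col4a1. Col8a1 was found in 3.88% (1.69 to 7.51%) of LFD and 26.7% (23.1 to 30.5%) of HFD members. Col6a5 stood just below the limit at 1.996, and the median log2 ratio of the list was 0.24.

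The 12 highest ratios among genes of at least 50 CPM included 9 genes besides Creb5, Anxa3 and Tnxb. Hpgd, which breaks down prostaglandins (chr8:56294585-56321043, plus strand), was at 10.0 CPM (LFD) and 99.3 CPM (HFD), a ratio of 9.89 (6.53 to 15.7), and in 6.31% of LFD and 39.4% of HFD members. Tppp3, a tubulin-binding protein, was at 26.2 CPM (LFD) and 141 CPM (HFD), 5.40 (4.15 to 7.13), and Prss23, a serine protease, at 112 CPM (LFD) and 558 CPM (HFD), 4.996 (4.40 to 5.69). Smoc2, a matricellular protein, Cilp, a cartilage matrix protein, and Sfrp4 were at 37.5 and 166 CPM, 37.5 and 145 CPM and 34.5 and 133 CPM in LFD and HFD. Gpnmb, a transmembrane glycoprotein, was at 18.8 and 94.5 CPM and Ackr3 at 30.98 and 137 CPM. Aldh1a3, an enzyme of retinoic acid synthesis, was at 41.5 and 156 CPM. The ratio of Hpgd was 21.7 with membership set after thinning, 39.0 with members thinned and 6.28 without members holding a marker of another type, and the ratio of Sfrp4 was 2.36 with membership set after thinning and 1.52 (1.11 to 2.15) in members with Dpp4 or Sema3c, within 2-fold. None of these genes exceeded 7.35 CPM in HFD B cells. In the Wt1+ cells Gpnmb and Ackr3 had ratios of 0.316 and 0.330. In members without Dpp4 or Sema3c, Hpgd was at 10.1 CPM (LFD) and 57.5 CPM (HFD) and Tnxb at 116 CPM (LFD) and 493 CPM (HFD), so the differences were also present there.

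Growth factor genes stood on both sides of 1. Of 38 ligands, receptors and binding proteins, 19 reached 20 CPM, 2 were at least 2-fold higher and none at least 2-fold lower (all genes 3.15% and 1.21%), and the median log2 ratio was 0.46. Those 2 were Igfbp6, at 293 CPM (LFD) and 694 CPM (HFD), and Igf1r, the receptor of insulin-like growth factor 1, at 26.6 CPM (LFD) and 58.0 CPM (HFD). The ligand Igf1 was at 1261 CPM (LFD) and 779 CPM (HFD), a ratio of 0.618 (0.590 to 0.647), and Fgf7 at 85.1 CPM (LFD) and 49.4 CPM (HFD), 0.580 (0.484 to 0.698). Fgf10, a fibroblast growth factor of adipose development, was at 24.4 CPM (LFD) and 6.51 CPM (HFD), 0.266 (0.174 to 0.406), with a mean below 20 CPM. Pdgfra and Pdgfrb had ratios of 0.798 (0.741 to 0.860) and 1.46 (1.25 to 1.73), and Igfbp4, the most abundant of the list, was at 2123 CPM (LFD) and 2074 CPM (HFD).

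Of 20 adipogenic genes, 11 reached 20 CPM, of which 2 were at least 2-fold higher (all genes 3.15%), Cd36 and Ebf2, a transcription factor of adipocyte identity, at 30.1 CPM (LFD) and 97.5 CPM (HFD), a ratio of 3.24 (2.52 to 4.22). Cebpb and Cebpd, C/EBP factors of early adipogenesis, were at 219 CPM (LFD) and 303 CPM (HFD) and at 422 CPM (LFD) and 317 CPM (HFD), on opposite sides of 1. Cebpa was at 11.8 CPM (LFD) and 14.5 CPM (HFD), below 20 CPM. Another list of 18 genes held restraints on adipogenesis and also Pparg, which drives it and lay below 20 CPM. Of these 18 genes, 12 reached 20 CPM and 1 was at least 2-fold higher (all genes 3.15%), Hes1, a Notch target, at 71.6 CPM (LFD) and 148 CPM (HFD). Klf4 was at 643 CPM (LFD) and 1238 CPM (HFD). The median log2 ratios of these lists were 0.56 and 0.23. Among 16 complement genes, C3 was the most abundant at 4687 CPM (LFD) and 3983 CPM (HFD), Cfb was at 602 CPM (LFD) and 387 CPM (HFD) and C4b at 161 CPM (LFD) and 312 CPM (HFD), and 1 of 9 genes was at least 2-fold higher (all genes 3.15%), Cd55.

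The AHR pathway was described because every cell had been sorted for past Cyp1a1 expression. Of 14 genes, 8 reached 20 CPM and none was past 2-fold in either direction, with a median log2 ratio of -0.05. Among all genes 4.36% were past 2-fold, so the count says little about a list of this size. Cyp1a1 itself was at 5.24 CPM (LFD) and 9.53 CPM (HFD), with UMIs in 2.43% of LFD and 3.48% of HFD members. Neither share was above that of B cells, 5.56% of LFD and 4.19% of HFD. These B cells were sorted for the same label, so they are no negative reference for Cyp1a1, and current expression could not be told from background. Cyp1b1, another AHR target (chr17:79701537-79715061, minus strand), was by contrast found in 98.5% of LFD and 97.0% of HFD members and was at 985 CPM (LFD) and 806 CPM (HFD), a ratio of 0.819 (0.779 to 0.861). In the Wt1+ cells it was at 759 and 930.1 CPM. Tiparp, a target that limits AHR signalling, was at 189 CPM (LFD) and 232 CPM (HFD), 1.23 (1.10 to 1.37).

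Ahr was at 11.3 CPM (LFD) and 7.62 CPM (HFD), a ratio of 0.672 (0.409 to 1.13), with UMIs in 11.2% of LFD and 6.79% of HFD members and 10.0% of LFD and 11.04% of HFD B cells. Ahrr, its repressor, was at 11.8 CPM (LFD) and 6.99 CPM (HFD), 0.593 (0.359 to 0.996), and Nqo1 at 8.73 CPM (LFD) and 10.5 CPM (HFD), 1.20 (0.719 to 2.09). For Ahr and Nqo1 the intervals included 1. Arnt, the partner of the receptor, had a ratio of 1.40 (1.09 to 1.82). The chaperones Hsp90ab1 and Hsp90aa1 were at 1332 and 1238 CPM and 470.4 and 425 CPM in LFD and HFD, and Ptges3 at 127 and 133 CPM. Nfe2l2 had a ratio of 1.00. Aldh3a1 had 3 LFD and 1 HFD count, 0.121 (0.00231 to 1.51), and Cyp1a2 had none, which allows up to 1.31 CPM in LFD and 0.476 CPM in HFD.

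Against the Wt1+ keratin-low cells, the progenitors carried many genes that those cells nearly lacked, which describes the cells and is no test, since the rule divided them. Sult1e1, the estrogen sulfotransferase, was at 86.0 and 303 CPM in LFD and HFD progenitors and at 0.114 and 0.960 CPM in Wt1+ cells, and its ratio between diets was 3.52 (3.04 to 4.10). Thbs2, thrombospondin 2, was at 155 and 263 CPM against 0.842 and 1.52 CPM, Aspn, asporin, at 202 and 214 CPM against 0.614 and 0.960 CPM, and Dpep1 at 317 and 531 CPM against 5.57 and 3.74 CPM. Ptx3, at 539.7 and 339 CPM against 13.9 and 12.0 CPM, and Lbp, the lipopolysaccharide binding protein, at 151 and 204 CPM against 6.64 and 4.19 CPM, were immune-related genes of this kind. Ebf1, a transcription factor of both adipocyte and B cells, was at 225 and 415 CPM against 8.32 and 7.28 CPM. The 20 genes with the highest ratio over Wt1+ cells, taking the smaller of both libraries, were drawn from genes of at least 50 CPM in the progenitors of each library, and that ratio ranged from 20.7 for Sparcl1 to 315 for Sult1e1. Others among them were Srpx2, Fbn2, Serpine2, Scn7a, Pcdh19, Aoc3, Ccn5, Ccl11, Pdgfrl, Igsf10 and Smim41.

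Members also varied among themselves. After thinning to 2000 UMIs, 1261 genes outside the rule had a mean of at least 0.2 UMI in both libraries, and their median variance-to-mean ratio, which is 1 for pure counting noise, was 1.08 in LFD and 1.09 in HFD. Ranked by the smaller of the ratios in both libraries, immunoglobulin genes came first, Igkc with 197 in LFD and 58.5 in HFD and Ighm with 97.0 in LFD and 21.8 in HFD, genes of which 3 cells in each library held a large share of the UMIs. Next in that ranking stood Mgp with 19.8 in LFD and 16.2 in HFD. The 20 LFD members with most Mgp held 45.0% of its UMIs, and the 57 HFD members 52.8%. Cxcl13 had ratios of 14.3 in LFD and 26.8 in HFD and Fabp4 of 9.03 in LFD and 22.3 in HFD. Saa3 had 25.7 in LFD and 8.50 in HFD and Cxcl12 5.56 in LFD and 6.11 in HFD. Gsn, the actin-severing protein gelsolin, had 9.33 in LFD and 8.15 in HFD, and was at 673 CPM (LFD) and 2217 CPM (HFD), a ratio of 3.29 (3.12 to 3.47), with cell medians of 361 and 1665 CPM. Collagen genes varied at high levels, Col3a1 with 9.58 in LFD and 13.1 in HFD and Col1a1 with 8.67 in LFD and 11.6 in HFD. Eln, Col1a2, Sparc, Apoe and the nuclear RNA Malat1 completed the 15 genes.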

How the data were processed

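Single-cell RNA-seq of eYFP+ gWAT SVF cells gave 1 library per diet. The authors deposited raw UMI counts per gene and barcode, made per the labels with Cell Ranger 4.0.0 and the mm10 genome (the notes also name STAR, bcl2fastq 2.17.1.14 and Seurat 4.1.0). The LFD library had 11281 barcodes and 114311020 UMIs, the HFD library 9631 and 119498750. Barcodes with 500 to 40000 UMIs, at least 100 genes and under 12.5% mitochondrial UMIs were kept. Members and gene lists were chosen with earlier results of these data known.

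Counts of members were summed per library and given as CPM with exact 95% Poisson intervals, and HFD to LFD ratios with exact conditional binomial intervals (scipy 1.17.1). No p-value was computed, since there was no replicate. The method was checked on simulated counts. Named genes were the 12 highest and 12 lowest ratios at 50 CPM or more with intervals leaving out 1 and a level at least 3 times that of B cells, without genes of the rule, mitochondrial, ribosomal, immunoglobulin, haemoglobin and predicted genes; the 20 genes highest against Wt1+ cells at 50 CPM or more in both libraries; the 15 most variable; the extremes and most abundant genes of each list; and all AHR and subtype genes. Other list genes were named for their known role after their values were seen. B cells were cells with Ptprc, at least 2 Cd79a UMIs and none of the 10 progenitor and 10 mesothelial genes of the rule; they were not filtered on cell cycle genes and were sorted for the same label as the members. Doublets were left in, and Scrublet (scanpy 1.11.5) scores served as an alternative, beside other member limits, scalings, filters and thinning. Gene positions came from GENCODE M21 and promoters from RefSeq, both GRCm38, which is mm10. A few genes of the lists are not reported here.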

Additional observations from a re-analysis of the deposited data

Results flagged for a closer look

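Among the AHR, inflammatory and subtype genes of at least 20 CPM, 12 had HFD to LFD ratios on opposite sides of 1 in the fibroblastic progenitors and in the Wt1+ keratin-low cells, with counting intervals that left out 1 in both and ratios at least 2-fold apart. The AHR, inflammatory, interstitial, committed and F3+ lists held 8, 24, 10, 11 and 8 genes of at least 20 CPM, some on more than 1 list. The share of all genes that met these criteria was not computed, so the count of 12 is a description. With 1 library per diet the difference between the cell groups was not tested. Il1r1 had a ratio of 0.675 in the progenitors and 1.46 in the Wt1+ cells, which differ by a factor of 0.462. Tnfaip6 had a ratio of 1.57 in the progenitors and 0.770 in the Wt1+ cells, which differ by a factor of 2.04. Ccl2 had a ratio of 0.775 in the progenitors and 1.57 in the Wt1+ cells, which differ by a factor of 0.494. Ccl11 had a ratio of 1.84 in the progenitors and 0.387 in the Wt1+ cells, which differ by a factor of 4.75. Cxcl2 had a ratio of 0.560 in the progenitors and 1.45 in the Wt1+ cells, which differ by a factor of 0.385. Col4a1 had a ratio of 2.16 in the progenitors and 0.665 in the Wt1+ cells, which differ by a factor of 3.25. Col4a2 had a ratio of 1.83 in the progenitors and 0.585 in the Wt1+ cells, which differ by a factor of 3.13. Col15a1 had a ratio of 1.13 in the progenitors and 0.280 in the Wt1+ cells, which differ by a factor of 4.04. Apoe had a ratio of 1.35 in the progenitors and 0.588 in the Wt1+ cells, which differ by a factor of 2.30. Dpep1 had a ratio of 1.67 in the progenitors and 0.671 in the Wt1+ cells, which differ by a factor of 2.50. Ggt5 had a ratio of 1.83 in the progenitors and 0.531 in the Wt1+ cells, which differ by a factor of 3.44. Fmo2 had a ratio of 3.66 in the progenitors and 0.332 in the Wt1+ cells, which differ by a factor of 11.05. The chemokines Ccl2, Cxcl2 and Ccl11, the cytokine receptor Il1r1 and the basement membrane collagens Col4a1, Col4a2 and Col15a1 were among them. In the Wt1+ cells Ccl11, Dpep1, Ggt5 and Fmo2 were at most 23.5 CPM in either library.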

How the results depend on the processing

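The direction of the 12 highest and 12 lowest ratios held under every alternative for the choice of members, scaling, doublets and thinning, but 1 of the 12 lowest was within 2-fold (0.609) with membership set after thinning, and 1 of the 12 highest, Sfrp4, was within 2-fold (1.52) in members with Dpp4 or Sema3c. No paired analysis was possible because each diet had 1 library, and for the same reason no library could be left out. Thinning members to 2000 UMIs gave 383 genes at least 2-fold higher and 143 at least 2-fold lower in HFD, a mean of at least 5 CPM gave 457 and 192, a mean of at least 100 CPM 50 and 21, and no filter beyond 1 count in each library 1168 and 1156. With membership set after thinning to 2000 UMIs the LFD share was 1.06% and the ratio of shares 5.83. The median log2 ratio of the committed genes was 0.53 with that membership, 0.50 without members holding a marker of another type, 0.51 with members thinned, 0.56 from the mean of per-cell CPM, 0.50 in members with Dpp4 or Sema3c and 0.87 in members without. The interstitial median was 0.86 in members without them, and the inflammatory median -0.37 in members with and -0.44 in members without. The split by Dpp4 or Sema3c and the limit on immunoglobulin were chosen after seeing the data. Igkc had a ratio of 0.489 in all members but of 5.44 without Scrublet doublets, 3.53 without members holding a marker of another type, 3.52 without immunoglobulin-rich members and 1.66 in members without Dpp4 or Sema3c. Mzb1, a plasma cell gene, went likewise above 1, to 2.61, 1.09 and 1.49 under the first 3 of these. The immunoglobulin-rich members were 3 in each library. The cause of the other shifts was not tested. Median-ratio scaling moved all log2 ratios by -0.09. The LFD members held 2291850 UMIs, so a count of 0 there allows up to 1.31 CPM, which limits what can be told of rare genes.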

Other observations

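Of 22 immediate early genes, which also respond to tissue dissociation, 21 reached 20 CPM and 2 were at least 2-fold higher in HFD (all genes 3.15%), Nr4a2 at 166 CPM (LFD) and 342 CPM (HFD) and Hspa1b at 14.0 CPM (LFD) and 36.5 CPM (HFD). Fos, the most abundant, was at 2099 CPM (LFD) and 2348 CPM (HFD), and Socs3, a target of STAT3, at 325 CPM (LFD) and 194 CPM (HFD), a ratio of 0.597 (0.544 to 0.655). The median log2 ratio of the list was 0.09, and the median mitochondrial share per member was 5.77% in LFD and 5.22% in HFD.

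Of 16 glycolysis and hypoxia genes of at least 20 CPM, 11 had a ratio below 1, where 3417 of all 5712 genes were above 1, and the median log2 ratio was -0.25. Gapdh was at 726 CPM (LFD) and 589 CPM (HFD), Ldha at 356 CPM (LFD) and 277 CPM (HFD) and Hif1a at 242 CPM (LFD) and 181 CPM (HFD). Adm, the vasodilator adrenomedullin and a hypoxia target, was the 1 gene at least 2-fold higher (all genes 3.15%), at 28.8 CPM (LFD) and 103 CPM (HFD), a ratio of 3.58 (2.78 to 4.69). Of 9 MHC class I genes of at least 20 CPM, H2-T23 was at least 2-fold higher (all genes 3.15%), at 45.8 CPM (LFD) and 94.5 CPM (HFD), and H2-Q7 at least 2-fold lower (all genes 1.21%), at 29.7 CPM (LFD) and 11.8 CPM (HFD), whereas B2m had a ratio of 1.00 (0.944 to 1.07). The level of H2-Q7 in B cells was 365 and 236 CPM, above that in the progenitors.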
